A study of Homo sapiens with 9 samples.

Results

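The genes described here are 42 genes of DNA replication, chosen by name from a list that follows the replication fork from origin licensing to the assembly of new chromatin, with the transcription factor E2F1 added. All 42 were on the array, with 1 transcript cluster (the array's unit for a gene) each, among 17687 named genes. They were measured in ACC-MESO-1, an established human mesothelioma cell line, on 9 Clariom S expression arrays. The arrays form 3 groups of 3: cells infected with the hairpin shLSD1 #1 (replicates 4 to 6), cells infected with the hairpin shLSD1 #2 (replicates 7 to 9), and cells infected with a control shRNA (replicates 1 to 3). All 3 groups thus carry an shRNA, both knockdown hairpins are directed against the histone demethylase LSD1, and every culture is of the same line, so the spread covers neither other lines nor uninfected cells. The LSD1 transcript is not analysed here. No label says whether replicates are separate cultures, so p-values measure the spread between arrays, which may be technical.

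Before S phase, the origin recognition complex, CDC6 and CDT1 load the ring of MCM2 to MCM7 onto DNA, and CDC45 and the GINS complex turn that ring into the active helicase. Primase and polymerase alpha then start each strand, the clamp PCNA and its loader RFC hold the other polymerases on the template, and FEN1 and LIG1 finish the fragments of the lagging strand. Many of these genes are known targets of the E2F factors, which switch them on as cells leave G1 and are held back by RB1 in resting cells.

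Values are log2 signals summarised by RMA (robust multi-array average), given in replicate order within each group, and the signal of one gene's probes cannot be set against another's. A gene is written as having risen or fallen only where limma's adjusted p, Benjamini-Hochberg over all 21448 clusters, was under 0.05. Signals of 37 members lay above the 95th percentile of the 612 negative control probe sets on all 9 arrays, and those of 3 (MCM10, POLD1 and POLE) on none. Array medians ran from 6.39 to 6.43, and 42% to 46.2% of clusters lay above the negative controls. The hybridization spike-ins, control RNAs added to each sample, fell into separate classes that moved with the groups: their mean signal was 10.80 to 10.84 with shLSD1 #1 and 11.30 to 11.38 on the control arrays, while replicates 7 and 9 of shLSD1 #2 had 11.33 and 11.18 and replicate 8 had 10.93. Of 12 mesothelial and mesothelioma markers, 5 lay above the negative controls on every array and CALB2, KRT5 and THBD on none. The mean log2 signal of that list was 8.59 to 8.71 with shLSD1 #1, 8.59 to 8.70 with shLSD1 #2 and 8.72 to 8.95 on the control arrays. Its single markers moved both ways: WT1 and UPK3B, below the negative controls on all control arrays, rose, and MSLN (-0.85 and -0.95) and HEG1 (-2.55 and -2.65) fell with each hairpin. All 4 endothelial and all 4 lung epithelial markers, and 4 of 5 blood markers (all but CD68, which fell with each hairpin), were below the negative controls on every array. The part of these markers in the results was not tested.

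More members rose than the share of all clusters that rose, with each hairpin. With shLSD1 #1, 12 of 42 members rose (28.6%), against 7.85% of all clusters, and with shLSD1 #2, 11 rose (26.2%), against 6.56% of all clusters. No member fell in limma's test with either hairpin, where 7.94% and 6.63% of all clusters fell. At an unadjusted p under 0.05 in either direction, 17 members (40.5%, against 29.1% of all clusters) passed with shLSD1 #1 and 19 (45.2%, against 26%) with shLSD1 #2. Among the 8566 clusters above the negative controls on every array, 13.7% rose with shLSD1 #1 and 11.8% with shLSD1 #2, against 11 and 10 of the 37 members in that set. The median change of the members was 0.20 on the log2 scale with each hairpin, against 0.03 and 0.02 for all clusters. With each hairpin 34 of 42 members (81%) had a change above 0, as had 53.3% of all clusters with shLSD1 #1 and 52.9% with shLSD1 #2. The RNA came from whole cultures, so fewer or more cells in S phase and less or more RNA per cell cannot be told apart.

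The members that rose with both hairpins numbered 10: MCM2, MCM4, PRIM1, PCNA, RFC4, FEN1, EXO1, RRM2, CHAF1A and E2F1. That is 23.8% of the members, where 5.11% of all clusters rose with both, and the comparisons share their 3 control arrays. These genes made up 83.3% of the members that rose with shLSD1 #1 and 90.9% of those that rose with shLSD1 #2. MCM3 and RRM1 passed with shLSD1 #1 alone, GINS1 with shLSD1 #2 alone, and 29 members with neither. MCM3, RRM1 and GINS1 passed with the other hairpin too in 2 alternatives. These were limma's trended and robust prior and the test of clusters above the negative controls on 3 or more arrays. The lowest limma adjusted p there was 0.0291, 0.0118 and 0.0362. For 20 members all 6 hairpin arrays lay above all 3 control arrays, a count for which the share of all clusters was not taken. Per hairpin, the arrays of 20 members (47.6%) with shLSD1 #1 and of 23 (54.8%) with shLSD1 #2 lay wholly above the controls, which held for 18.2% and 16.8% of all clusters. Those of 2 members (4.76%) lay wholly below the controls with each hairpin, against 16.8% of all clusters with shLSD1 #1 and 15.3% with shLSD1 #2.

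**Figure D1:**
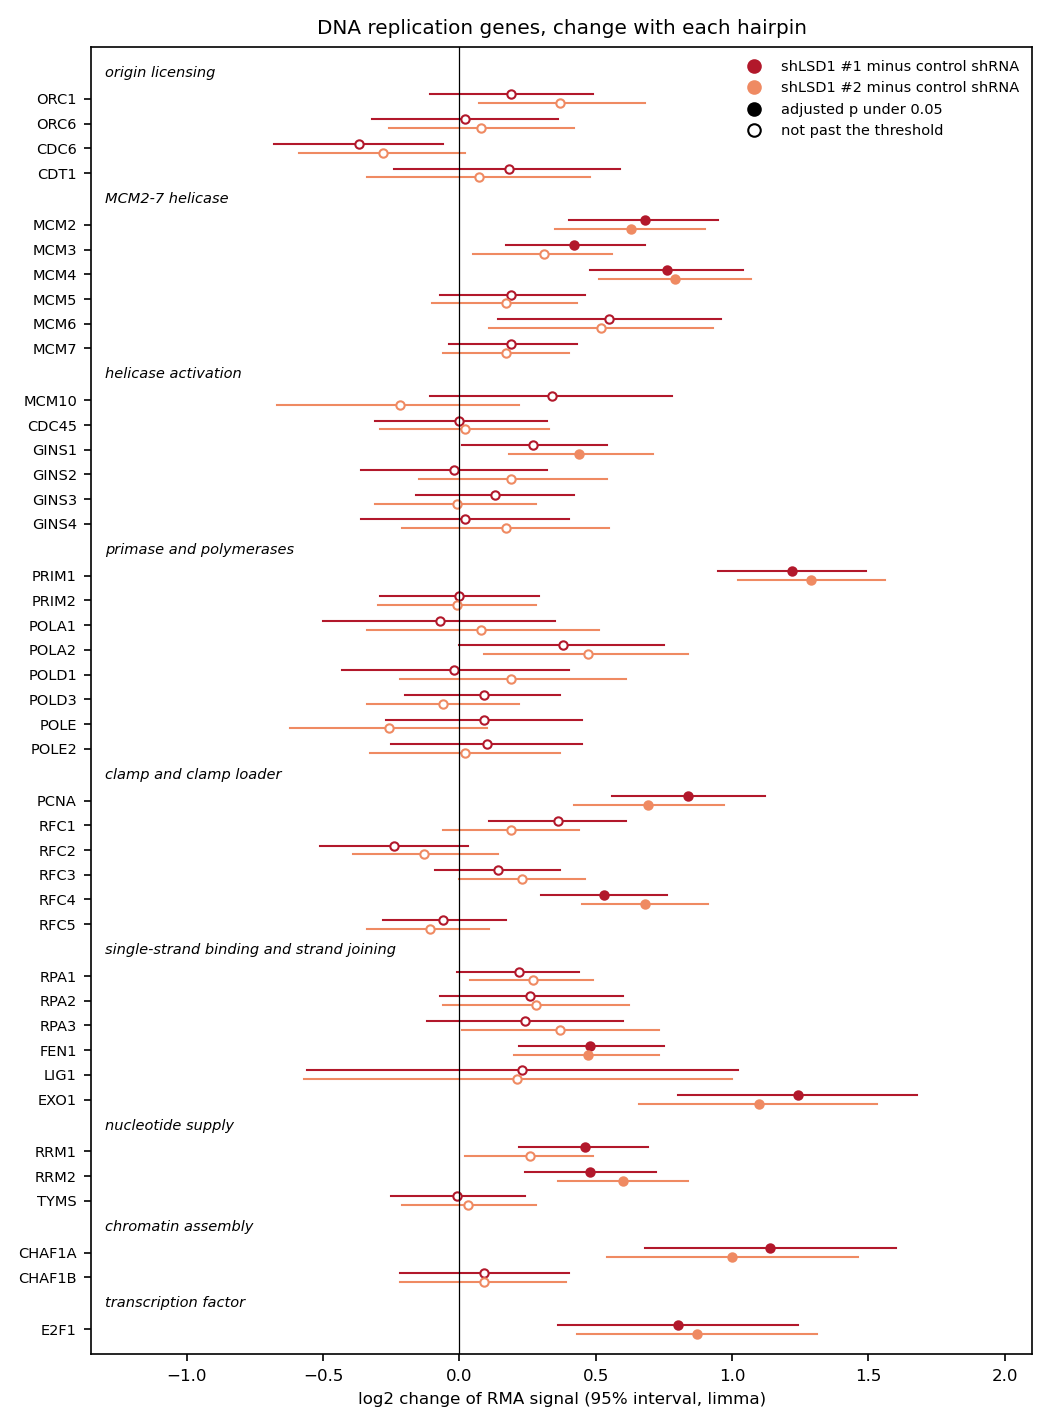
Log2 change of each of the 42 members with shLSD1 #1 (dark red) and shLSD1 #2 (orange) over control shRNA, with limma's 95% interval, grouped by role; filled points passed an adjusted p of 0.05. PRIM1, EXO1 and CHAF1A lie furthest to the right, at 1.00 or more with both hairpins, and no filled point lies left of 0.

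Promoter sequences were in the table used for 36 of the 42 members (RefSeq, GRCh38.p14; 250 bases before to 50 after the start site). The E2F words TTTCCCGC, TTTCGCGC, TTTGCCGC and TTTGGCGC, on either strand, were in 42.2% of the 45 windows of members, against 3.31% of 35116 promoters of the same length. The word CCAAT, which the factor NF-Y binds, was on either strand in 57.8% of the members' windows and 34.6% of all promoters. An E2F word was found for 6 of 12 members that rose with a hairpin and for 13 of 24 that did not, and CCAAT for 8 of 12 and 13 of 24. The stretches printed here show this, each the 80 bases just before the start site on the gene's own strand, with E2F words and CCAAT (either strand) in capitals. E2F1 and PCNA, which rose with both hairpins, have E2F words, PRIM1 and CHAF1A rose without one in these bases, and TYMS and GINS2 passed with neither hairpin but have one. In CHAF1A the capitals are CCAAT and its reverse complement, overlapping. A match of letters does not show that a factor binds there.
E2F1, chr20:33686386-33686465, minus strand: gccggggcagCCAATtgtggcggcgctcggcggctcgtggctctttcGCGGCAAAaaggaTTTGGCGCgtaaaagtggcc
PCNA, chr20:5126623-5126702, minus strand: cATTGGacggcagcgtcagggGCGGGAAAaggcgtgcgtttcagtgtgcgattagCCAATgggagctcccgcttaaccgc
PRIM1, chr12:56752324-56752403, minus strand: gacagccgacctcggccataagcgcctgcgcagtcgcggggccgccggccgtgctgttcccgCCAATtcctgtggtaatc
CHAF1A, chr19:4402560-4402639, plus strand: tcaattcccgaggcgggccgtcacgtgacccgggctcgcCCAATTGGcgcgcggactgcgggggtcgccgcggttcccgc
TYMS, chr18:657573-657652, plus strand: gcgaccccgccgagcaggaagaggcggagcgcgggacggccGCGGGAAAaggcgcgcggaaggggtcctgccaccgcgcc
GINS2, chr16:85688955-85689034, minus strand: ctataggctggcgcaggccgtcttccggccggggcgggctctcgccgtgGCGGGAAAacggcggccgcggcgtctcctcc

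None of the 4 licensing genes passed the test with either hairpin. CDC6, the ATPase that loads the MCM ring with CDT1, read 10.57, 10.96 and 10.95 with shLSD1 #1 and 10.94, 10.79 and 11.02 with shLSD1 #2, against 11.11, 11.27 and 11.21 with control shRNA. It was the 1 member whose 6 hairpin arrays all lay below the 3 controls, and the share of all clusters that did so was not taken. Its change was -0.37 ± 0.137 (SE, n = 3 arrays a group; 95% interval -0.68 to -0.06; limma adjusted p = 0.103) with shLSD1 #1 and -0.28 (adjusted p = 0.233) with shLSD1 #2. Under limma's trended and robust prior the first value passed the threshold (adjusted p = 0.0314). ORC1, the large ATPase subunit of the origin recognition complex, showed 0.19 with shLSD1 #1 and 0.37 with shLSD1 #2 (adjusted p = 0.399 and 0.111), its other subunit here, ORC6, had 0.02 and 0.08, and CDT1 had 0.18 and 0.07.

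Every subunit of the MCM ring read higher on every hairpin array than on any control array, and some passed the test. Of the 6 subunits, 3 passed with shLSD1 #1 and 2 with shLSD1 #2, with a median log2 change of 0.49 and 0.41. MCM4 had 11.97, 12.02 and 11.85 with shLSD1 #1 and 11.97, 11.85 and 12.12 with shLSD1 #2, against 11.28, 11.26 and 11.03 with control shRNA. The lowest hairpin array stood well clear of the highest control. The log2 rise was 0.76 ± 0.124 (1.69-fold, limma adjusted p = 0.00293) with shLSD1 #1 and 0.79 ± 0.124 (1.73-fold, adjusted p = 0.00266) with shLSD1 #2 (SE, n = 3 arrays a group, as for every SE below).

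MCM2 read 10.10, 9.71 and 9.91 with shLSD1 #1 and 9.83, 9.92 and 9.81 with shLSD1 #2, against 9.23, 9.18 and 9.27 with control shRNA. The control arrays lay close together, and the log2 rise was 0.68 ± 0.123 and 0.63 ± 0.123 (limma adjusted p = 0.00504 and 0.00858). MCM3 read 11.41, 11.44 and 11.19 with shLSD1 #1 and 11.25, 11.20 and 11.26 with shLSD1 #2, against 10.87, 10.88 and 11.04 with control shRNA. Its rise of 0.42 ± 0.114 passed with shLSD1 #1 (adjusted p = 0.0337), and the 0.31 with shLSD1 #2 did not (adjusted p = 0.118). The MCM3 call was lost with single arrays left out, while its change with shLSD1 #1 stayed at 0.37 to 0.50 over all alternatives. Without replicate 1 or 2 of the controls, 4 or 5 of shLSD1 #1 or 7 of shLSD1 #2, its adjusted p was 0.101, 0.104, 0.102, 0.0878 and 0.0525.

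MCM6 had 9.65, 10.37 and 9.77 with shLSD1 #1 and 9.80, 9.86 and 10.03 with shLSD1 #2, against 9.36, 9.27 and 9.51 with control shRNA. Its changes of 0.55 and 0.52 had a larger error (SE 0.182) and did not pass (limma adjusted p = 0.0727 and 0.102), although the hairpin arrays were all above the controls. They passed under the trended and robust prior (adjusted p = 0.0191 and 0.0308), and without replicate 4 or 5 of shLSD1 #1 one of them did (0.0497 for shLSD1 #1 without replicate 4, 0.0247 for shLSD1 #2 without replicate 5). MCM5 and MCM7 showed 0.19 with shLSD1 #1 and 0.17 with shLSD1 #2 each, with upper 95% bounds of at most 0.46.

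Of the 6 genes that turn the loaded ring into a moving helicase, GINS1 alone passed, with 1 hairpin. GINS1 had 12.62, 12.51 and 12.66 with shLSD1 #1 and 12.84, 12.65 and 12.82 with shLSD1 #2, against 12.33, 12.19 and 12.46 with control shRNA. The arrays of both hairpins lay above the controls. With shLSD1 #2 it rose by 0.44 ± 0.118 (limma adjusted p = 0.0357), and with shLSD1 #1 the value was 0.27 (adjusted p = 0.157). This call was lost without replicate 1 or 2 of the controls (adjusted p = 0.0909 and 0.127), replicate 4 of shLSD1 #1 (0.053) or replicate 7 or 9 of shLSD1 #2 (0.114 and 0.0912). Its partners GINS2, GINS3 and GINS4 had changes of -0.02 to 0.19, and CDC45 had 0.00 and 0.02, with an interval of -0.31 to 0.32 for shLSD1 #1. MCM10, which helps CDC45 onto the ring, was below the negative controls on all arrays, so no fold is given.

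Among the 8 primase and polymerase subunits, PRIM1 alone rose, and it had the smallest adjusted p of all members with each hairpin. PRIM1, the catalytic subunit of primase that makes the RNA primers, had 11.30, 11.19 and 10.99 with shLSD1 #1 and 11.28, 11.11 and 11.28 with shLSD1 #2, against 9.91, 9.88 and 10.02 with control shRNA. No hairpin array came near the controls. Its log2 rise was 1.22 ± 0.12 (2.34-fold, limma adjusted p = 0.00017) with shLSD1 #1 and 1.29 ± 0.12 (2.44-fold, adjusted p = 0.000127) with shLSD1 #2.

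The other subunits of the same enzyme did not pass. PRIM2, the regulatory primase subunit, had 10.96, 10.93 and 10.93 with shLSD1 #1 and 10.85, 10.78 and 11.18 with shLSD1 #2, against 11.06, 10.87 and 10.90 with control shRNA. Its groups overlapped, the change with shLSD1 #1 had an interval of -0.29 to 0.29, and the RefSeq table lists 1 pseudogene copy, PRIM2BP, whose transcripts the probes may share. POLA1, the catalytic subunit of polymerase alpha, had -0.07 and 0.08. POLA2, its accessory subunit, read 9.20, 9.23 and 9.5 with shLSD1 #1 and 9.60, 9.22 and 9.38 with shLSD1 #2, against 8.76, 9.24 and 8.80 with control shRNA. Control replicate 2 of POLA2 lay among the hairpin arrays, and the changes of 0.38 and 0.47 did not pass (limma adjusted p = 0.168 and 0.105). Without that array the second value was 0.62 (adjusted p = 0.0446). POLD3 and POLE2, subunits of polymerases delta and epsilon, had changes of -0.06 to 0.10, and their catalytic subunits POLD1 and POLE were below the negative controls throughout.

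**Figure D2:**
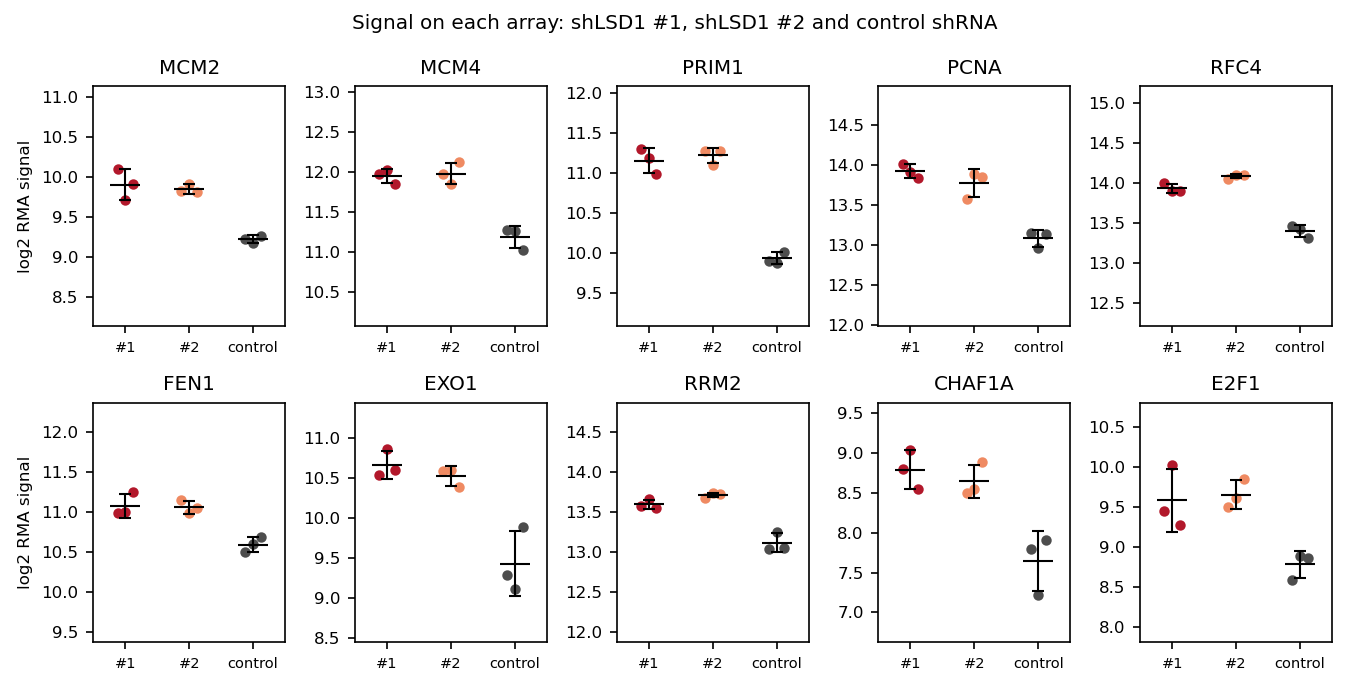
Log2 RMA signal on each array for the 10 members that rose with both hairpins; each panel spans its own range of signal, bars give the mean and SD of 3 arrays, with shLSD1 #1, shLSD1 #2 and control shRNA from left to right. In every panel the 6 hairpin arrays lie above the 3 control arrays, by the widest gap in PRIM1.

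The sliding clamp and 1 subunit of its loader rose. PCNA, the clamp, had 14.01, 13.91 and 13.84 with shLSD1 #1 and 13.57, 13.89 and 13.85 with shLSD1 #2, against 13.15, 12.96 and 13.13 with control shRNA. All hairpin arrays were above the controls, by 0.84 ± 0.125 (1.79-fold, limma adjusted p = 0.00176) and 0.69 ± 0.125 (1.62-fold, adjusted p = 0.00551) in the mean. The RefSeq table lists 4 pseudogenes of PCNA, and of the other members that rose, 3 of RRM2 and 1 of FEN1. What share of the signal they give was not tested.

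RFC4, a small subunit of the loader, had 14, 13.91 and 13.90 with shLSD1 #1 and 14.06, 14.11 and 14.10 with shLSD1 #2, against 13.47, 13.43 and 13.32 with control shRNA. Its arrays were tight within each group, and the log2 rise was 0.53 ± 0.102 and 0.68 ± 0.102 (limma adjusted p = 0.00679 and 0.00204). RFC1, the large subunit, had changes of 0.36 and 0.19 (adjusted p = 0.0571 and 0.343), with all hairpin arrays above the controls, and passed with shLSD1 #1 under the trended and robust prior (adjusted p = 0.0117). RFC3 had 0.14 and 0.23, also with no overlap. RFC2 and RFC5 pointed the other way without passing: RFC2 had -0.24 and -0.13 (adjusted p = 0.216 and 0.572) and RFC5 had -0.06 and -0.11. The loader of 5 subunits thus held 1 that rose and 4 that did not pass.

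Of the genes that cover single strands and finish fragments, EXO1 and FEN1 rose. EXO1, a 5′ to 3′ exonuclease of mismatch repair and of resection at breaks, read 10.53, 10.86 and 10.60 with shLSD1 #1 and 10.59, 10.60 and 10.38 with shLSD1 #2, against 9.29, 9.11 and 9.88 with control shRNA. Control replicate 3 was the nearest to the hairpin arrays and still below all of them. The log2 rise was 1.24 ± 0.195 (2.36-fold, limma adjusted p = 0.00247) and 1.1 ± 0.195 (2.14-fold, adjusted p = 0.00528).

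FEN1, which trims the flap of each lagging strand fragment, had 10.99, 11.00 and 11.25 with shLSD1 #1 and 11.15, 10.99 and 11.05 with shLSD1 #2, against 10.50, 10.60 and 10.69 with control shRNA. The groups did not overlap, and the log2 rise was 0.48 ± 0.118 and 0.47 ± 0.118 (limma adjusted p = 0.0224 and 0.0293). The shLSD1 #1 call for FEN1 was lost without control replicate 1 or 2 or replicate 6 of shLSD1 #1 (adjusted p = 0.0793, 0.0634 and 0.0758). The shLSD1 #2 call was lost without any one of the 6 arrays compared (adjusted p = 0.1, 0.0806 and 0.0508 for controls 1 to 3, and 0.0996, 0.0565 and 0.0643 for replicates 7 to 9). LIG1, the ligase that seals the fragments, lay above the negative controls on 1 array alone, replicate 5 of shLSD1 #1, and did not pass. RPA1, RPA2 and RPA3, the single-strand binding complex, had changes of 0.22 to 0.37 and none passed. RPA1 came nearest, with 13.18, 13.13 and 13.16 with shLSD1 #1 and 13.12, 13.24 and 13.26 with shLSD1 #2, against 12.90, 12.93 and 12.99 with control shRNA (adjusted p = 0.19 and 0.123), and it passed with both under the trended and robust prior (adjusted p = 0.0402 and 0.013).

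For nucleotide supply, RRM2 rose with both hairpins, RRM1 with shLSD1 #1, and TYMS did not pass. RRM2, the small subunit of the reductase that is made in S phase, had 13.58, 13.66 and 13.55 with shLSD1 #1 and 13.68, 13.74 and 13.72 with shLSD1 #2, against 13.04, 13.25 and 13.05 with control shRNA. Its groups did not overlap, and the log2 rise was 0.48 ± 0.108 and 0.60 ± 0.108 (limma adjusted p = 0.0141 and 0.00534). The first call was narrowly lost without control replicate 1 or 3 (adjusted p = 0.0539 and 0.0537).

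RRM1, the large subunit, had 14.15, 14.02 and 14.23 with shLSD1 #1 and 13.97, 13.95 and 13.89 with shLSD1 #2, against 13.67, 13.64 and 13.72 with control shRNA. The arrays of shLSD1 #2 lay between the other groups. RRM1 rose by 0.46 ± 0.104 with shLSD1 #1 (limma adjusted p = 0.0158), and its 0.26 with shLSD1 #2 did not pass (adjusted p = 0.151). Without control replicate 2, or replicate 4 or 6 of shLSD1 #1, the RRM1 call was lost (adjusted p = 0.0579, 0.0507 and 0.0567). TYMS, which makes thymidylate, had 13.77, 13.72 and 13.71 with shLSD1 #1 and 13.72, 13.79 and 13.80 with shLSD1 #2, against 13.59, 13.78 and 13.85 with control shRNA. These overlapped, with an interval of -0.25 to 0.24 for shLSD1 #1.

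CAF-1, the chaperone that places new histones behind the fork, had 1 of its 2 members here raised. CHAF1A, its large subunit, had 8.79, 9.03 and 8.54 with shLSD1 #1 and 8.50, 8.55 and 8.88 with shLSD1 #2, against 7.80, 7.22 and 7.91 with control shRNA. Control replicate 2 was below the negative controls, and the other arrays were above them. The log2 rise was 1.14 ± 0.205 (2.21-fold, limma adjusted p = 0.0048) and 1.00 ± 0.205 (adjusted p = 0.0107). CHAF1B, the middle subunit, had 11.88, 11.55 and 11.40 with shLSD1 #1 and 11.68, 11.51 and 11.63 with shLSD1 #2, against 11.54, 11.55 and 11.47 with control shRNA. Its changes were 0.09 with each hairpin, with an upper 95% bound of 0.40 for shLSD1 #1.

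E2F1, the activating factor of the G1/S programme, had 9.45, 10.02 and 9.27 with shLSD1 #1 and 9.5, 9.61 and 9.85 with shLSD1 #2, against 8.59, 8.89 and 8.86 with control shRNA. Replicate 5 of shLSD1 #1 was the highest, and no hairpin array reached down to the controls. The log2 rise was 0.80 ± 0.198 (1.74-fold, limma adjusted p = 0.023) and 0.87 ± 0.198 (1.83-fold, adjusted p = 0.0179). Without control replicate 1 or 3 the shLSD1 #1 call for E2F1 was lost (adjusted p = 0.0818 and 0.0511), and without control replicate 1 or replicate 8 or 9 of shLSD1 #2 so was the other (adjusted p = 0.0682, 0.05 and 0.059). Across the 9 arrays E2F1 also followed the mean of the members, each scaled to its own mean and SD, most closely of all members (Pearson r = 0.981, a description that includes E2F1 in the mean), and CDC6 ran most against it (r = -0.576).

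Within-array differences set subunits of 1 enzyme side by side, where a shift between groups and not the level of the difference has a meaning. PRIM1 minus PRIM2 was 0.34, 0.26 and 0.06 with shLSD1 #1 and 0.43, 0.33 and 0.10 with shLSD1 #2, against -1.15, -0.99 and -0.89 with control shRNA, a shift of 1.26. CHAF1A minus CHAF1B was -3.09, -2.52 and -2.86 with shLSD1 #1 and -3.18, -2.96 and -2.75 with shLSD1 #2, against -3.75, -4.33 and -3.57 with control shRNA, a shift of 0.98. In both pairs the hairpin arrays lay wholly above the controls. RRM2 minus RRM1 was -0.57, -0.37 and -0.68 with shLSD1 #1 and -0.29, -0.20 and -0.17 with shLSD1 #2, against -0.64, -0.39 and -0.68 with control shRNA, and the shLSD1 #1 arrays overlapped the controls. These pairs were chosen after their values were seen, so no test is given for them.

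**Figure D3:**
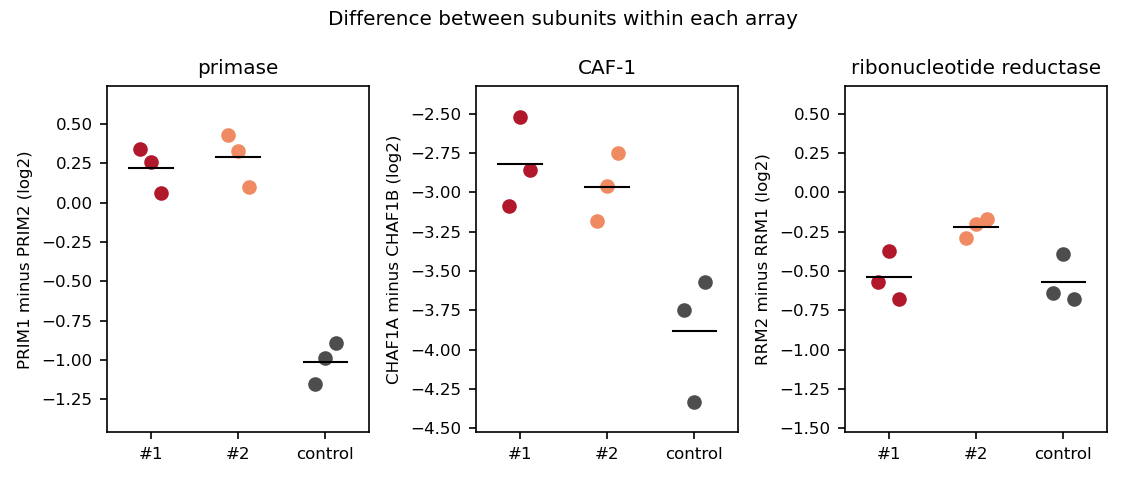
Difference in log2 signal between subunits of primase, CAF-1 and ribonucleotide reductase within each array; points are arrays, lines group means, with shLSD1 #1, shLSD1 #2 and control shRNA from left to right. For primase and CAF-1 the control arrays lie apart below, and for the reductase they overlap shLSD1 #1.

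No member passed a test between the hairpins. Set against each other, 0 of 42 members and 0 of 21448 clusters (0%) passed in limma's test. At an unadjusted p under 0.05, 1 member (2.38%) and 7.87% of all clusters differed, and with a trended and robust prior 0 members passed. Changes above 0 were found for 21 members (50%, against 50.2% of all clusters), the arrays of 3 lay wholly above (7.14%, against 6.57%) and those of 3 wholly below (7.14%, against 6.78%). The difference between hairpins ran from -0.22 to 0.56 over the members, with a smallest adjusted p of 0.584. The largest was that of MCM10, which was not above background. Over the 37 members above the negative controls on all arrays, the range was -0.22 to 0.20 and the smallest adjusted p was 0.69. The 95% interval stayed within 0.5 of 0 for 31 members and within 1 of 0 for 41. These intervals give the differences that are not excluded, and not those that the adjusted test could detect. Of the 29 members that passed with neither hairpin, 28 had both intervals within 1 of 0, and 16 had both upper bounds under 0.5.

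**Figure D4:**
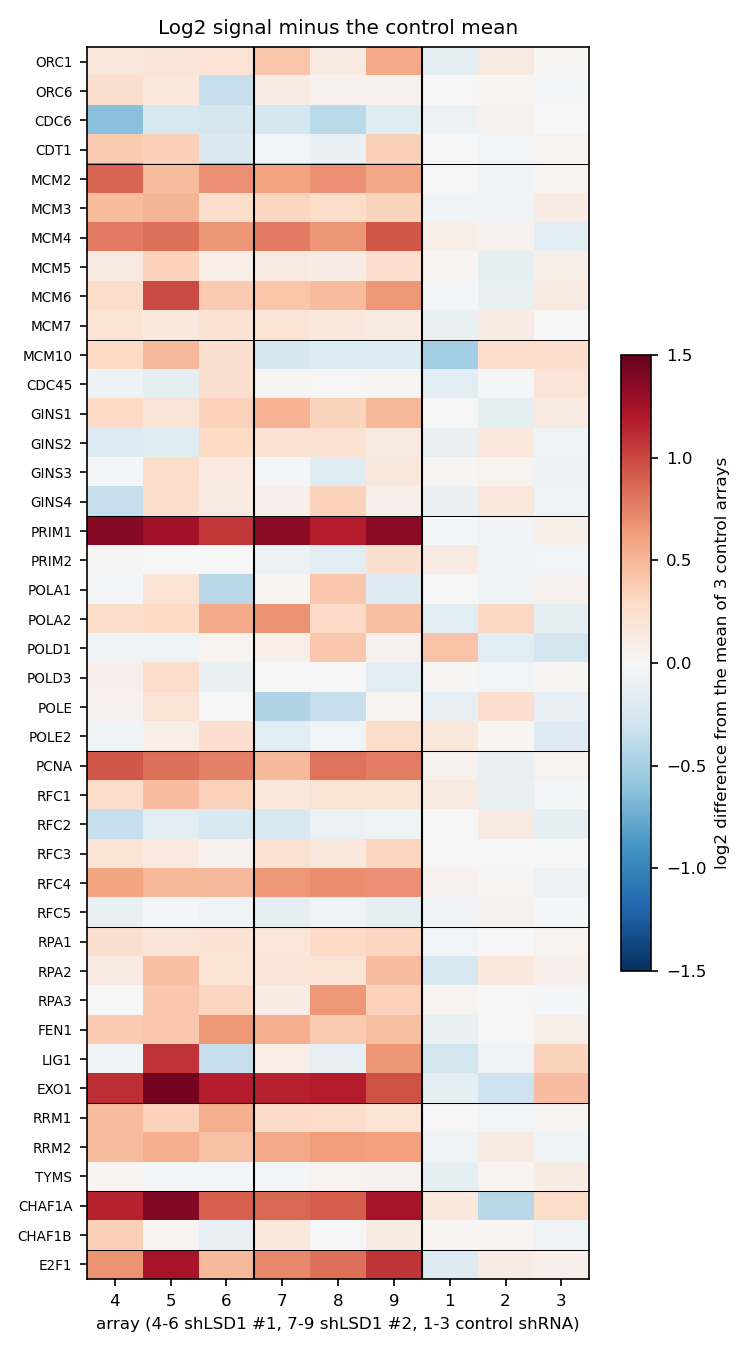
Log2 signal of each member minus its mean on the 3 control arrays, for every array, with shLSD1 #1 (4 to 6), shLSD1 #2 (7 to 9) and control shRNA (1 to 3) from left to right; red is higher and blue lower. The rows of MCM2 to MCM7, PRIM1, PCNA, RFC4, FEN1, EXO1, the reductase rows, CHAF1A and E2F1 are red on all 6 hairpin arrays, and CDC6 is blue on all 6.

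The spike-in classes bear on these counts unequally for each hairpin. All shLSD1 #1 arrays were of the low class and all control arrays of the high class, so this hairpin and the class can be told apart only through the shLSD1 #2 arrays. Of these, replicate 8 alone was of the low class, so the class term rests on that array against replicates 7 and 9. With the class as a block, 1 of the 12 calls with shLSD1 #1 remained, PRIM1 (log2 rise 1.39, limma adjusted p = 0.0192). Calls over all clusters dropped as well: 0.858% rose with shLSD1 #1 in that fit, against 7.85% without the block. The median change of the members was then 0.32 in place of 0.20, while the median SE was 0.231 in place of 0.133. With shLSD1 #2, 9 of the 11 calls remained with the block, and FEN1 (adjusted p = 0.0565) and E2F1 (0.05) did not. There 4.53% of all clusters rose, against 6.56% without the block. Among high-class arrays alone, 2 of shLSD1 #2 against 3 of control shRNA, 5 of the 11 remained: MCM2, MCM4, PRIM1, RFC4 and E2F1. The other 6 had adjusted p-values of 0.0555 to 0.0885 there, and 3.26% of all clusters rose. The members' changes with shLSD1 #2 were the same in both class settings, so these are not separate estimates. Leaving aside these class settings, 7 of the 12 calls with shLSD1 #1 (MCM2, MCM4, PRIM1, PCNA, RFC4, EXO1 and CHAF1A) passed under every alternative, and 8 of the 11 with shLSD1 #2 (the same genes and RRM2).

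Further genes of replication rose more often than fell. Of 30 further fork and origin genes on the array (of 31 listed), 7 rose and 2 fell with each hairpin, with a median log2 change of 0.33 and 0.32. The share that rose was 23.3%, against 7.85% and 6.56% of all clusters, and the share that fell is near the 7.94% and 6.63% of all clusters. Of clusters above the negative controls on every array, as 26 of the 30 genes were, 13.7% and 11.8% rose. These counts were lower with single arrays left out, as was the share of all clusters that rose. With shLSD1 #1, 2 rose without control replicate 2 or 3, 3 without replicate 4, and 4 without control replicate 1 or replicate 5, 6, 8 or 9. In those fits 5.3% to 7.68% of all clusters rose. With shLSD1 #2, 4 rose without control replicate 2 or replicate 9, where 4.35% and 5.19% of all clusters rose. GMNN, which binds CDT1 to prevent a second round of licensing, rose by 0.95 and 0.91 (limma adjusted p = 0.00223 and 0.00319), and the origin subunit ORC4 rose by 0.59 and 0.58. POLE4, a small subunit of polymerase epsilon, rose by 0.66 and 0.81, and the nuclease DNA2 rose by 0.77 with shLSD1 #2, with 0.40 (adjusted p = 0.0999) for shLSD1 #1. POLD4, the smallest subunit of polymerase delta, fell to 9.25, 9.14 and 9.32 with shLSD1 #1 and 9.39, 9.24 and 9.31 with shLSD1 #2, against 10.33, 10.15 and 10.24 with control shRNA (-1 and -0.92; adjusted p = 0.000311 and 0.000525). POLE3, the histone-fold partner of POLE4, fell (-0.46 and -0.49) and was singled out after its values were seen. The call of POLE4 with shLSD1 #1 was lost without any of 4 arrays (adjusted p up to 0.0658), and those of POLE3 without any of 5 (up to 0.11 and 0.101). The topoisomerase TOP2A, which untangles finished copies, had 0.10 and 0.12 and did not pass.

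For nucleotide supply outside the members, 8 of 10 listed genes were on the array, of which 1 fell with each hairpin and 1 rose with shLSD1 #2. Of all clusters, 7.94% and 6.63% fell and 7.85% and 6.56% rose with shLSD1 #1 and shLSD1 #2. SAMHD1, which breaks down the deoxynucleotides that the reductase helps to make, fell to 12.01, 11.73 and 12.08 with shLSD1 #1 and 11.62, 11.73 and 11.62 with shLSD1 #2, against 13.23, 12.94 and 13.09 with control shRNA. That is a log2 change of -1.15 and -1.43 (limma adjusted p = 0.000398 and 0.000108), and with the spike-in block it still passed with both hairpins. DCTPP1, which removes altered dCTP, rose by 0.62 with shLSD1 #2 and had 0.18 (adjusted p = 0.347) with shLSD1 #1, and TK1, the thymidine kinase of S phase, had -0.11 and -0.10 and did not pass. Of 10 further genes that copy chromatin marks or place histones, 3 rose and 1 fell with shLSD1 #1 and 2 rose and 1 fell with shLSD1 #2. The share that rose was 30% and 20%, against 7.85% and 6.56% of all clusters. Of clusters above the negative controls on every array, as 8 of the 10 genes were, 13.7% and 11.8% rose. Without control replicate 2, 1 of these genes rose with each hairpin, and the shLSD1 #2 count was also 1 without replicate 4, 6, 7 or 8 and 0 without control replicate 1. In those fits 5.3% of all clusters rose with shLSD1 #1 and 4.35% to 6.15% with shLSD1 #2. UHRF1, which guides DNA methylation behind the fork, rose by 0.72 and 0.51, and RBBP4, the small subunit of CAF-1, rose by 0.57 and 0.72. DNMT1, the maintenance methyltransferase, was below the negative controls on all control arrays and was at least 1.35-fold higher with shLSD1 #1, where it passed (adjusted p = 0.0171), and missed the threshold with shLSD1 #2 (adjusted p = 0.0695). ASF1A, which hands histones to CAF-1, fell (-0.59 and -0.61). Single arrays left out ended the calls of UHRF1 with shLSD1 #2 (7 arrays, adjusted p up to 0.109), of RBBP4 with shLSD1 #1 (6 arrays, up to 0.109) and shLSD1 #2 (control replicate 1, 0.0546), and of DNMT1 (control replicate 2 and replicate 6 of shLSD1 #1, up to 0.062).

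The regulators of S-phase entry split by direction: of 25 on the array (of 26 listed), 4 rose and 6 fell with each hairpin, and the median was -0.02 and 0.03. The share that rose was 16% with each, against 7.85% and 6.56% of all clusters, and 7.94% and 6.63% of all clusters fell. Of clusters above the negative controls on every array, 13.7% and 11.8% rose. Without control replicate 1 or 2 or replicate 7 or 8, 3 of the regulators fell with shLSD1 #2, where 4.52% to 4.69% of all clusters fell. CDKN1A, the inhibitor that holds back cyclin-dependent kinases and binds PCNA, had 9.66, 9.48 and 9.14 with shLSD1 #1 and 9.38, 9.22 and 9.42 with shLSD1 #2, against 11.38, 11.23 and 11.24 with control shRNA. It fell with both, by log2 changes of -1.86 and -1.95 (limma adjusted p = 4.47e-05 and 3.56e-05), a larger change than that of any of the 42 members. The kinase CDK6 rose by 1.52 and 1.55 and cyclin CCND1 by 1.04 and 0.87, while cyclin CCND3 fell (-0.85 and -0.95). CDC25A, the phosphatase that activates CDK2, lay below the negative controls on all control arrays and was at least 1.61-fold and at least 1.4-fold higher with the hairpins (adjusted p = 0.00127 and 0.0033). TFDP1, the DNA-binding partner of E2F1, fell (-0.72 and -0.65), as did RB1, its restraint (-0.59 and -0.51), both singled out after their values were seen. The RB1 call with shLSD1 #2 was lost without control replicate 1 or 2 or replicate 7 or 8 of shLSD1 #2 (adjusted p up to 0.0679). The kinase CDK2 also fell (-0.76 and -0.47, limma adjusted p = 0.00252 and 0.0302), as did CDK4 (-0.54 and -0.37, adjusted p = 0.00581 and 0.0401). With shLSD1 #2 the CDK2 call was lost without any of 6 arrays (adjusted p up to 0.0921). The CDK4 call was lost there without any of 9 (up to 0.122). Cyclin CCNE2, an E2F target, had -0.11 and 0.44 with overlapping groups.

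Of 36 genes of mitosis, 9 rose and 1 fell with shLSD1 #1 (25% higher) and 5 rose with shLSD1 #2 (13.9% higher). Their median log2 changes were 0.21 and 0.20, near those of the replication genes. Of all clusters 7.85% and 6.56% rose. Of those above the negative controls on every array, as all 36 genes were, 13.7% and 11.8% rose. The 13.9% with shLSD1 #2 is near that last share. Without control replicate 1, 5 of the mitosis genes rose with shLSD1 #1. With shLSD1 #2, 1 rose without control replicate 2 or replicate 7, 2 without control replicate 1, and 3 without replicate 8 or 9. In those fits 5.58% of all clusters rose with shLSD1 #1 and 4.35% to 5.19% with shLSD1 #2. MKI67, the proliferation marker, had 12.60, 12.56 and 12.38 with shLSD1 #1 and 12.22, 12.14 and 12.20 with shLSD1 #2, against 11.91, 11.65 and 11.81 with control shRNA. It rose by 0.72 with shLSD1 #1 (limma adjusted p = 0.00281), and 0.39 with shLSD1 #2 did not pass (adjusted p = 0.0544). Cyclin CCNB2 rose by 0.84 and 0.61, the chromosomal passenger INCENP by 0.66 and 0.57 and the cytokinesis scaffold ANLN by 0.54 and 0.52. CENPF, a kinetochore protein, rose by 0.84 with shLSD1 #1 and had 0.47 (adjusted p = 0.0622) with shLSD1 #2. Securin, PTTG1, rose by 0.43 with shLSD1 #2 and had 0.32 (adjusted p = 0.0738) with shLSD1 #1. With single arrays left out, 4 of these calls were lost, at adjusted p-values up to 0.0828 for INCENP with shLSD1 #1 (3 arrays) and, with shLSD1 #2, up to 0.152 for INCENP (8 arrays), 0.0652 for ANLN (2 arrays) and 0.0844 for PTTG1 (5 arrays). No test was made of a difference between these lists and the 42 members. With the spike-in block, the genes of these further lists that still passed with shLSD1 #1 were CDKN1A (adjusted p = 0.0207) and SAMHD1 (0.0433), both lower. With shLSD1 #2 the block ended the calls of POLE3 (adjusted p = 0.0547), UHRF1 (0.0855), RB1 (0.0534), INCENP (0.0602) and PTTG1 (0.0836). It also ended those of the fork and origin genes DBF4 (0.143) and RNASEH2B (0.083) and of the kinases CDK2 (0.0878) and CDK4 (0.122). The other fork genes that had risen with shLSD1 #2 still passed. With the block 1 chromatin gene and 3 mitosis genes were higher and 3 G1/S regulators lower. On high-class arrays alone 2 fork genes and 0 mitosis genes were higher. Of all clusters, 4.53% rose and 4.52% fell with shLSD1 #2 with the block, and 3.26% rose on high-class arrays.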

How the data were processed

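RNA of ACC-MESO-1 cells was hybridized to 9 Clariom S arrays. The deposited values are log2 signals per transcript cluster that the authors summarised by RMA in Affymetrix Expression Console 1.4, per the submitters' processing notes. The log base was taken as RMA's default, and the sources used here do not give it, nor the library files. The signals of the clusters spanned 1.79 to 18.1, with 160 clusters over 16 on some array, so the highest values are not raw scanner intensities. The number of arrays limits the precision.

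Of 24351 values per array, 2903 control probe sets were set aside, leaving 21448 clusters, of which 17709 carry 1 gene symbol and 3739 none. One limma model (limma 3.58.1, R 4.3.3) was fitted to the 3 groups with lmFit and eBayes, with no filter, two-sided, and Benjamini-Hochberg adjustment over all clusters, and 6 residual and 3.54 prior degrees of freedom. The procedure was tested on simulated data. Where a group lay below the 95th percentile of the negative controls on all its arrays, a fold is given as at least the other group's mean over that percentile. Figures were drawn with matplotlib 3.10.9.

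The members and the gene lists were chosen with earlier results of these data known. Genes named were all 42 members, up to 4 genes per further list and hairpin that passed with the largest change, CDKN1A, CCNE2, TK1, TOP2A and MKI67 in any case, and the 5 genes most like the members. POLE3, TFDP1, RB1, CDK2, CDK4, DBF4 and RNASEH2B were named outside this rule, after their values were seen. Alternatives were another normalization (quantile, array medians, cyclic loess), filters on low signal, a trended robust prior, array weights, only the groups compared, each array left out, and the class of spike-in signal. No arrays were duplicates.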

Additional observations from a re-analysis of the deposited data

Results flagged for a closer look

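MCM10, which helps CDC45 onto the MCM ring, differed between the hairpins at an unadjusted p under 0.05. Its log2 signal was 6.66, 6.85 and 6.60 with shLSD1 #1, 6.11, 6.16 and 6.15 with shLSD1 #2 and 5.85, 6.62 and 6.62 with control shRNA. The difference of shLSD1 #1 minus shLSD1 #2 was 0.56 (95% interval 0.12 to 1.01), and after adjustment over all clusters it did not pass (limma adjusted p = 0.584). All 9 values lay below the negative controls, so the difference is between signals that were not above background.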

How the results depend on the processing

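Over 19 alternatives, 0 values of members reversed their call. With clusters above the negative controls on 3 or more arrays, which leaves fewer clusters to test, 17 members rose with shLSD1 #2 (median change 0.25) and 1 fell with shLSD1 #1. Of the 9793 clusters in that fit, 19.1% rose with shLSD1 #2 and 21.5% fell with shLSD1 #1, and 38 members were among them. The trended robust prior likewise gave 17 with shLSD1 #2 and 1 fallen with shLSD1 #1. Under that prior 10.5% and 9.06% of all clusters rose with shLSD1 #1 and shLSD1 #2, and 10.4% fell with shLSD1 #1. The member that fell was CDC6 in both. The spike-in class as a block left 1 member higher with shLSD1 #1 (median change 0.32), and the high-class arrays alone left 5 with shLSD1 #2, in a fit of 5 arrays. Of all clusters, 0.858% and 3.26% rose in these comparisons. Without 1 array at a time, 8 to 12 members rose with each hairpin, 0 fell, 0 differed between hairpins, and the median change was 0.16 to 0.24 with shLSD1 #1 and 0.20 to 0.24 with shLSD1 #2. In these fits 5.3% to 7.68% of all clusters rose with shLSD1 #1 and 4.35% to 6.28% with shLSD1 #2. The other normalizations gave 12 to 14 members with shLSD1 #1 and 11 with shLSD1 #2, where 7.34% to 8.33% and 6.41% to 6.94% of all clusters rose. Counts in the further lists moved both ways: mitosis genes that rose, 9 and 5, numbered 16 and 15 under the trended robust prior, 5 to 8 and 1 to 5 without 1 array, 0 and 3 with the block, and 0 with shLSD1 #2 on high-class arrays. The cause was not tested for these changes. The mean over a gene's clusters was not run, since each member has 1 cluster. No paired analysis was possible because the groups share no replicate numbers. Signals near the negative controls limit MCM10, POLD1, POLE and LIG1.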

Other observations

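The named genes outside the list whose signal over the 9 arrays most resembled the mean of the members were HMGB2 (Pearson r = 0.99), GALNT10 (0.987), PAM (0.985), SRP14 (0.983) and U2AF2 (0.98). These are descriptions over arrays that share the split into groups. HMGB2, a chromatin protein of dividing cells, had 12.74, 12.96 and 12.66 with shLSD1 #1 and 12.70, 12.71 and 12.94 with shLSD1 #2, against 12.11, 12.14 and 12.17 with control shRNA. All hairpin arrays of HMGB2 were above the controls, and it rose by 0.65 and 0.64 on the log2 scale (limma adjusted p = 0.00639 and 0.00761).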
